A study of Mus musculus with 17 samples.

Results

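Glucocorticoid-induced genes and the receptor that drives them were followed across 3 subsets of macrophages of the synovium, the membrane that lines joints. The group consisted of 6 of the 22859 genes in the count table: Fkbp5, Tsc22d3, Sgk1, Klf9 and Ddit4, which glucocorticoids are known to induce, and Nr3c1, which encodes the glucocorticoid receptor. They were chosen by their measured values, counts that were higher after immune complexes (IC) than in controls for the induced genes, so the IC values of these genes are given as a description, with no test. Comparisons between subsets, and between the IC responses of subsets, were not used in that choice and were tested. They all share libraries with it, however. Those in controls share its control libraries, those after IC its IC libraries, and those between responses both, since they are built from the same IC differences.

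All 17 libraries came from mice labelled as Fcgr2b knockouts, controls included, so every comparison is within animals of this label. Fcgr2b encodes the inhibitory Fc receptor for immunoglobulin G. The mice had received IC, antibodies bound to their antigen, intravenously 8 h before they were culled, or were controls, labelled Healthy in the titles and Control in the treatment field. The study gives age only as a range over all its in vivo work. What the controls received, the time of day of collection and whether animals were pooled for these libraries are not given in the sources used here. Macrophages were sorted from collagenase-digested synovium as LYVE1+CX3CR1+ cells, labelled Lyve1, as MHCII+CD11c− cells, labelled IAIE, and as MHCII+CD11c+ cells, labelled CD11c. Each of the 6 groups had 3 libraries, with the exception of the MHCII+CD11c+ IC group of 2 libraries.

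Glucocorticoids are steroid hormones that cross the cell membrane and bind the glucocorticoid receptor, which waits in the cytoplasm in a complex with HSP90 chaperones. The bound receptor moves to the nucleus, where it binds palindromic DNA elements and raises the transcription of genes such as these, and it lowers the transcription of many inflammatory genes. Macrophages express the receptor and respond to the hormone with an anti-inflammatory programme. Fkbp5 encodes a co-chaperone that binds the receptor complex and lowers its affinity for hormone, a negative feedback loop. Tsc22d3 encodes GILZ, a leucine zipper protein that restrains NF-kappaB and AP-1. Sgk1 encodes a kinase related to AKT, Klf9 a transcription factor of the Krüppel-like family, and Ddit4 the mTORC1 inhibitor REDD1.

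The letters to which the receptor binds were searched in the promoter windows of RefSeq on GRCm38.p6, each from 250 bases before to 50 bases after a gene start. Both strands were read for the palindrome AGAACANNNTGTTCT, for its core GNACANNNTGTNC and for the hexamer AGAACA, and the shorter motifs overlap the palindrome. The 5 genes other than the receptor had 12 windows, of which 6 were of Sgk1, 3 of Tsc22d3 and 1 each of Fkbp5, Klf9 and Ddit4. The palindrome was in 3 of all 32851 windows (0.00913%), and 1 of these was the fifth window of Sgk1. The core was in 156 windows (0.475%) and the hexamer in 6233 (19%). The hexamer was also in the second window of Tsc22d3 and in the first and the fourth windows of Sgk1. None of these motifs was in the windows of Fkbp5, Klf9 and Ddit4, which says only that the letters are not in these windows. The windows of 3 genes are shown, 5′ to 3′ on the strand of the gene, with matches in capitals: the Sgk1 window with the palindrome, the Tsc22d3 window with a hexamer, and the window of Fkbp5, the gene with the largest IC difference, which holds neither. The Sgk1 window lies at chr10:21993640-21993939 on the plus strand, the Tsc22d3 window at chrX:140600473-140600772 on the minus strand and the Fkbp5 window at chr17:28486100-28486399 on the minus strand. In the Sgk1 window the palindrome starts at base -189 from the gene start, beside a further hexamer at base -242, and in the Tsc22d3 window the hexamer, read on the opposite strand, starts at base -185.
Sgk1 promoter 5: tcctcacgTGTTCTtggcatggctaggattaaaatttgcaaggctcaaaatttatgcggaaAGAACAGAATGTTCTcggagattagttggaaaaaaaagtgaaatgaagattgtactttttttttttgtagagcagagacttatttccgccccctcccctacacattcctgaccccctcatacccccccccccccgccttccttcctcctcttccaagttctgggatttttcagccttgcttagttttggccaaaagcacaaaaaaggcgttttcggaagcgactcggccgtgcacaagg
Tsc22d3 promoter 2: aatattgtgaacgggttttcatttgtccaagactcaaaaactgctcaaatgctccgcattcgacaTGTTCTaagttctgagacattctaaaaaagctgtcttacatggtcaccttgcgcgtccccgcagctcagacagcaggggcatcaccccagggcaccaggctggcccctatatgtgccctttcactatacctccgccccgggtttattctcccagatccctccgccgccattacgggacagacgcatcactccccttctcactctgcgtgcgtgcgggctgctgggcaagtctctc
Fkbp5 promoter 1: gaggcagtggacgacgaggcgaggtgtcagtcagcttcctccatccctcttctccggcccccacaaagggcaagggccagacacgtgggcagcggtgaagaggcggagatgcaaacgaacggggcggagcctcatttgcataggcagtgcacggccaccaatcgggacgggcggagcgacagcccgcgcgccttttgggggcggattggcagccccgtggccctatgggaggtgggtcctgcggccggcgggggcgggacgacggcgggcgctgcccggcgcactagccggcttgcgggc

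The genes lie on 5 chromosomes of GRCm38 (mm10). Fkbp5 spans 17:28399094-28517527 on the minus strand, Tsc22d3 X:140539528-140600659 on the minus strand, Sgk1 10:21882184-21999903 on the plus strand, Klf9 19:23141226-23168134 on the plus strand, Ddit4 10:59949669-59951834 on the minus strand and Nr3c1 18:39410545-39519421 on the minus strand. All 6 are protein-coding, and none shared an exon base with another gene of the table.

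Totals ranged from 2301913 to 7248939 counts, and all 6 genes passed the filter on low counts among 15272 genes tested. Libraries of LYVE1+CX3CR1+ macrophages after IC had a count for 11547 to 14068 genes, against 16974 to 19926 in their controls. Their totals were lower too, at 2301913 to 3348248 counts against 3669763 to 7248939. The part of depth in the genes detected was not tested. The markers followed the sort: Itgax, which encodes CD11c, was at 275 to 443 CPM, which is counts scaled to a common library total, in MHCII+CD11c+ libraries and at most at 16 CPM elsewhere, and 4 MHC class II genes summed to 19.8 to 156 CPM in LYVE1+CX3CR1+ libraries and to at least 11130 CPM elsewhere. Macrophage markers summed to 7370 to 13979 CPM, fibroblast markers to at most 211 CPM and monocyte markers to at most 1177 CPM. Subset markers moved with IC. In LYVE1+CX3CR1+ libraries 5 markers of the LYVE1+ side summed to 3552 to 4385 CPM in controls and 5560 to 6516 CPM after IC, and the MHC class II genes to 102 to 156 and 19.8 to 49.2 CPM, with H2-Eb1 at 0 in all 3 IC libraries. In MHCII+CD11c− libraries the same sums were 988 to 1721 and 1817 to 3293 CPM, and 16325 to 17607 and 11130 to 11575 CPM. In MHCII+CD11c+ libraries these sums overlapped between control and IC, while 7 neutrophil markers summed to 77.1 to 273 CPM in controls and 25.7 to 29.7 CPM after IC, 5 mast cell markers to 0.425 to 3.40 and 20.4 to 46.2 CPM, and 5 endothelial markers to 3.03 to 15.05 and 25.3 to 25.7 CPM. Csf3r, a neutrophil marker of this sum, was higher in every MHCII+CD11c+ IC library, with means of 15.3 CPM in controls and 26.5 CPM after IC. S100a8, S100a9, Ly6g, Retnlg and Mmp8 were lower in every IC library there, and Cxcr2 overlapped. None of these 7 was called by edgeR. The LYVE1+ side markers did not all move as their sum either. In LYVE1+CX3CR1+ libraries mean Lyve1 went from 1955 to 3619 CPM and Vsig4 from 1172 to 1798 CPM. Cx3cr1 went down there from 432 to 268 CPM, lower in every IC library, and Folr2 from 122 to 104 CPM with overlap. In MHCII+CD11c− libraries Cx3cr1 went from 100 to 70.5 CPM with overlap. In MHCII+CD11c+ libraries Timd4, of the same list, went from 11.4 to 50.4 CPM, higher in both IC libraries. This difference was called by edgeR (log2 2.15 ± 0.36, SE, adjusted p = 0.0113), while Lyve1, Cx3cr1, Folr2 and Vsig4 overlapped there. The edgeR test called none of these differences of Lyve1, Vsig4, Cx3cr1 and Folr2. Of the MHC class II genes in LYVE1+CX3CR1+ libraries it called H2-Eb1 (adjusted p = 5.85e-06), Cd74 (adjusted p = 0.00258) and H2-Aa (adjusted p = 0.0121) lower after IC. H2-Ab1 was not called there (adjusted p = 0.245), and in MHCII+CD11c− libraries no MHC class II gene of the list was. The part of all the markers above in the IC values below was not tested. Reads of Fcgr2b were still counted, at group means of 104 to 217 CPM, and since all groups carry the same knockout label and the deleted part is not given here, they check no comparison. In bulk libraries, fewer cells of a type and less RNA per cell cannot be told apart.

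Fkbp5 stood apart from the other genes in how far its level differed after IC. In LYVE1+CX3CR1+ macrophages it was at 11.3, 24.3 and 10.6 CPM in controls and at 163, 130.3 and 184 CPM after IC. In MHCII+CD11c− macrophages the control libraries had 17.7, 27.0 and 12.4 CPM and the IC libraries 206, 162 and 341 CPM. In MHCII+CD11c+ macrophages the values were 19.1, 32.5 and 30.3 CPM in controls and 145 and 127 CPM after IC. Every IC library of Fkbp5 thus lay above every control library of any subset, by group means of 15.4 ± 7.72, 19.0 ± 7.42 and 27.3 ± 7.16 CPM against 159 ± 27.0, 236 ± 93.3 and 136 ± 13 CPM (SD, in the order of the subsets above). The fitted log2 fold changes were 3.40 ± 0.36, 3.61 ± 0.36 and 2.32 ± 0.36 (SE), with ratios of the group means of 10.3, 12.4 and 4.98. On leaving out each library in turn they stayed within 3.22 to 3.86, 3.25 to 3.96 and 2.11 to 2.48.

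Tsc22d3 was the other gene whose IC libraries lay above the controls in all 3 subsets. LYVE1+CX3CR1+ controls had 215, 247 and 275 CPM and the IC libraries 494, 433 and 485 CPM. MHCII+CD11c− controls had 194, 139 and 244 CPM, and 600.2, 416 and 567 CPM were measured after IC. MHCII+CD11c+ macrophages had the lowest levels, with 125, 109 and 99.5 CPM in controls and 323 and 219.9 CPM after IC. Group means of Tsc22d3 were 246 ± 29.95, 192 ± 52.4 and 111 ± 13.1 CPM in controls and 471 ± 33.2, 528 ± 98.1 and 272 ± 73.3 CPM after IC (SD), so the MHCII+CD11c+ libraries after IC overlapped the LYVE1+CX3CR1+ controls. The fitted log2 differences were 0.94 ± 0.20, 1.46 ± 0.21 and 1.28 ± 0.22 (SE). The third of these fell to 0.97 without MHCII+CD11c+ IC library 1.

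**Figure D1:**
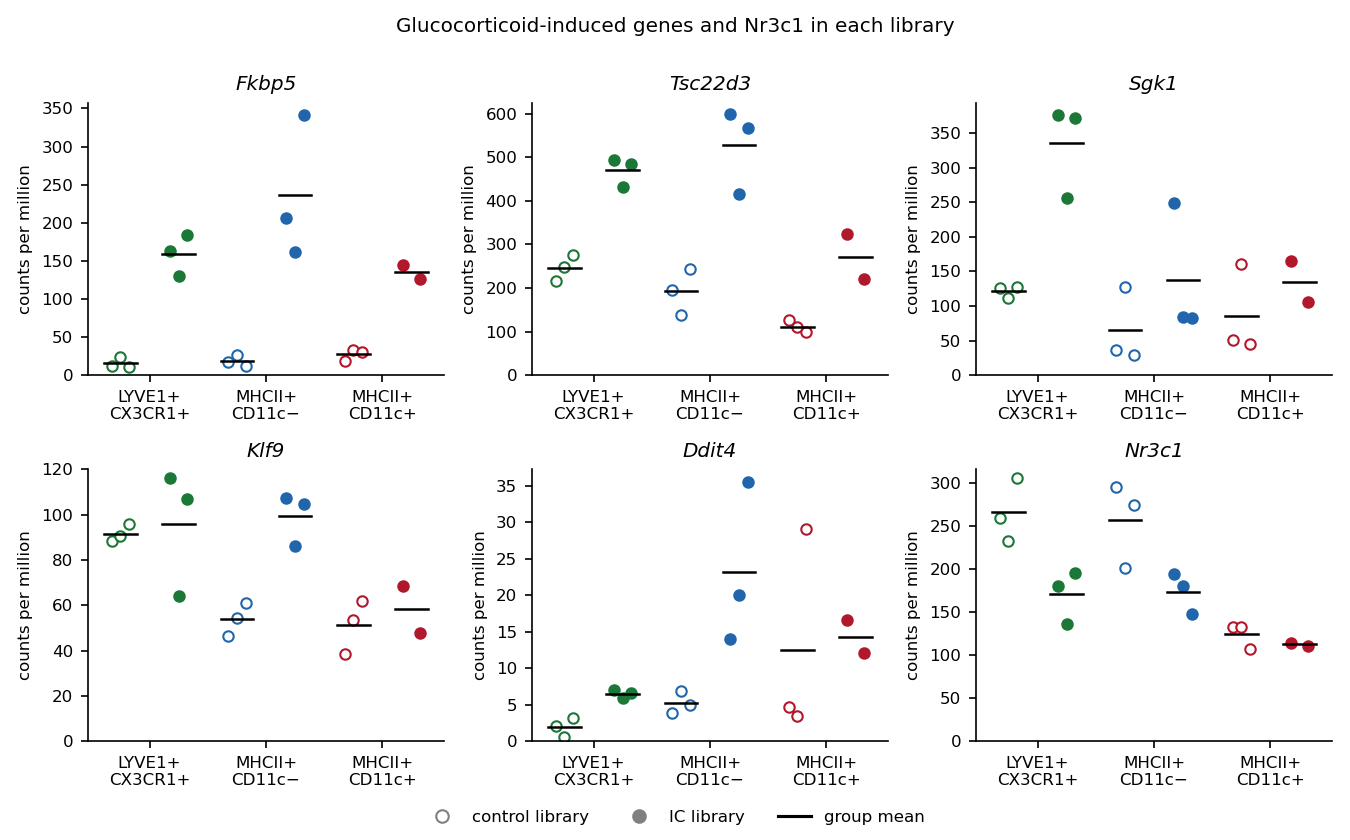
Levels of the 6 genes in each of the 17 libraries, in CPM on linear axes from 0, by subset. Open circles are control libraries, filled circles IC libraries and black lines group means. Fkbp5 and Tsc22d3 are higher in every IC library than in every control library of the same subset, and Sgk1 and Ddit4 show single control libraries far above the others of their group.

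Sgk1 was higher after IC in LYVE1+CX3CR1+ macrophages without overlap, at 126, 112 and 128 CPM in controls and 377, 257 and 373 CPM after IC. In both MHCII+ subsets its control libraries were spread, with library 2 high in each. MHCII+CD11c− controls had 36.9, 128 and 29.8 CPM beside 249, 83.4 and 82.0 CPM after IC, and MHCII+CD11c+ controls had 50.2, 160.3 and 45.0 CPM beside 165 and 105 CPM after IC. Control and IC libraries overlapped in both. The log2 differences of Sgk1 were 1.46 ± 0.65, 1.08 ± 0.65 and 0.66 ± 0.71 (SE), and those of the MHCII+ subsets rested on single libraries. In MHCII+CD11c− macrophages the value was 2.05 without control library 2 and 0.34 without IC library 1, and in MHCII+CD11c+ macrophages it was 1.5 without control library 2 and 0.30 without IC library 1.

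Klf9 differed between control and IC libraries in MHCII+CD11c− macrophages, at 46.5, 54.6 and 61.2 CPM in controls and 107, 85.9 and 105 CPM after IC, with no overlap. In LYVE1+CX3CR1+ macrophages the control values of 88.4, 90.5 and 95.7 CPM lay inside the IC values of 116, 63.9 and 107 CPM. MHCII+CD11c+ macrophages had 38.7, 53.5 and 62.0 CPM in controls and 68.6 and 47.8 CPM after IC, which overlapped too. The log2 differences of Klf9 were 0.06 ± 0.24, 0.88 ± 0.24 and 0.18 ± 0.27 (SE, subsets in the order used above). Leaving out single libraries turned the sign of the first, to -0.07 without IC library 1, and of the third, to -0.11 without IC library 1.

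Ddit4 had the lowest CPM of the genes, not scaled by length, in each group mean and rested on 2 to 129 counts per library. Its level in LYVE1+CX3CR1+ controls was 2.05, 0.541 and 3.21 CPM, and 7.02, 5.98 and 6.64 CPM were found after IC. MHCII+CD11c− macrophages had 3.84, 6.89 and 5.02 CPM in controls and 14.0, 19.98 and 35.5 CPM after IC. These 2 subsets showed no overlap, while MHCII+CD11c+ macrophages had 4.68, 3.53 and 29.1 CPM in controls and 16.6 and 12.1 CPM after IC, so that control library 3 lay above both IC libraries. The log2 differences of Ddit4 were 1.69 ± 0.73, 2.13 ± 0.70 and 0.24 ± 0.74 (SE). The last value was 1.80 without MHCII+CD11c+ control library 3, -0.16 without control library 1, -0.21 without control library 2 and -0.03 without IC library 1.

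Nr3c1, the receptor itself, had lower group means after IC, unlike the genes it induces. In LYVE1+CX3CR1+ macrophages it was at 259, 233 and 307 CPM in controls and at 181, 137 and 196 CPM after IC. In MHCII+CD11c− macrophages the controls had 296, 202 and 275 CPM and the IC libraries 194, 181 and 148 CPM. The receptor was thus lower in every IC library than in every control library of these subsets, while the 133, 133 and 108 CPM of MHCII+CD11c+ controls overlapped the 115 and 111 CPM found after IC. Its log2 differences were -0.64 ± 0.19, -0.56 ± 0.19 and -0.14 ± 0.21 (SE), which correspond to ratios of group means of 0.643, 0.677 and 0.906.

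**Figure D2:**
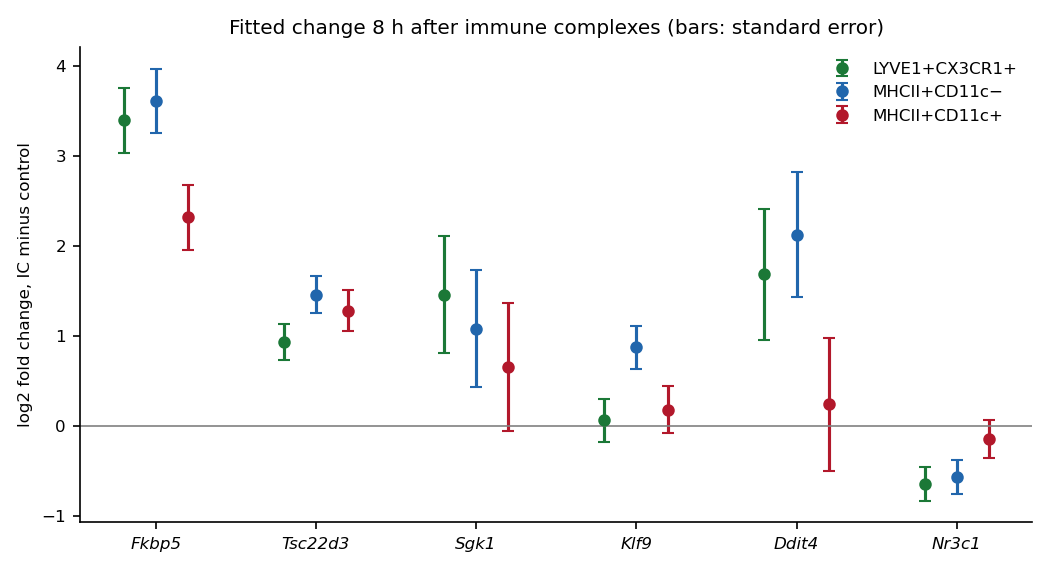
Fitted log2 fold change of each gene, IC minus control, in LYVE1+CX3CR1+ (green), MHCII+CD11c− (blue) and MHCII+CD11c+ (red) macrophages, with bars of 1 standard error and a grey line at no change. Fkbp5 has the highest values, from 2.32 to 3.61, and the values of Nr3c1 lie between -0.64 and -0.14.

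The number of genes past the threshold after IC, an adjusted p under 0.05 by edgeR's quasi-likelihood test, was 2 of the 6 in each subset, Fkbp5 and Tsc22d3 each time, and since these comparisons chose the genes the count is no result. Over all genes tested the share past it was 0.963% for LYVE1+CX3CR1+ macrophages, 0.701% for the MHCII+CD11c− subset and 0.216% for the MHCII+CD11c+ subset. Every IC library lay above every control library for 4, 4 and 2 of the 6 genes, against 4.95%, 8.72% and 14.1% of all genes tested. The medians of the 6 log2 differences were 1.2, 1.27 and 0.45, those of all genes -0.14, -0.03 and 0.01.

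Levels of different genes were set side by side per kb of exon, as CPM per kb. Over the control libraries Tsc22d3 had the highest level, at 42.2 CPM per kb, followed by Nr3c1 at 28.1, Sgk1 at 18.5, Klf9 at 13.6, Ddit4 at 3.73 and Fkbp5 at 2.17 CPM per kb. Over the IC libraries the order was Tsc22d3 at 102, Sgk1 at 43.1, Nr3c1 at 20.5, Fkbp5 at 19.3, Klf9 at 18.2 and Ddit4 at 8.39 CPM per kb. Fkbp5 thus stood last in controls and beside the receptor and Klf9 after IC. Its place depended on the length used: per kb of the longest transcript Fkbp5 was at 5.34 CPM per kb in controls, above Ddit4 at 3.73, and at 47.3 CPM per kb after IC, above Nr3c1 at 24.5 and below Sgk1 at 68.3 CPM per kb. Between single libraries the range was widest for Ddit4, with a ratio of highest to lowest CPM of 65.7, then Fkbp5 with 32.1 and Sgk1 with 12.7, and narrowest for Nr3c1 with 2.85.

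**Figure D3:**
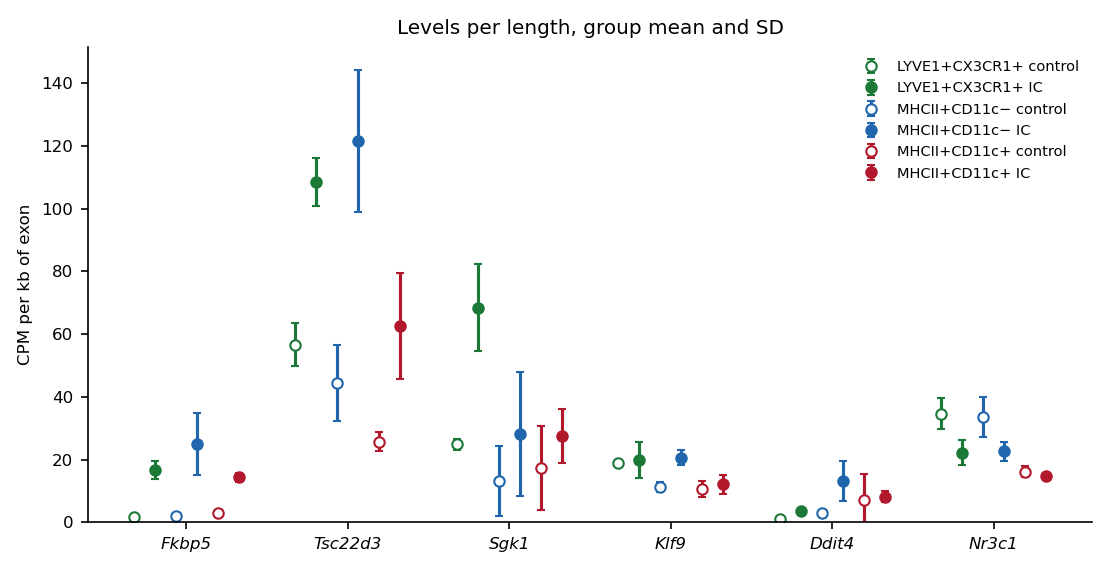
Group mean and SD of each gene in CPM per kb of exon, with open circles for control groups, filled circles for IC groups and colours for subsets. Tsc22d3 has the highest level of the 6 genes in each of the 6 groups, and Sgk1 in LYVE1+CX3CR1+ macrophages after IC, at 68.4 CPM per kb, exceeds Sgk1 in the other IC groups at 27.5 and 28.2.

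Subset differences in control mice were next tested. LYVE1+CX3CR1+ and MHCII+CD11c+ macrophages differed in 4 of the 6 genes, where 15.2% of all genes tested were called. Tsc22d3 was higher in LYVE1+CX3CR1+ controls by 1.14 ± 0.20 on the log2 scale (95% interval 0.72 to 1.56, adjusted p = 0.000286), as was the receptor Nr3c1 by 1.10 ± 0.19 (0.70 to 1.49, adjusted p = 0.000213). Klf9 was higher by 0.84 ± 0.24 (0.34 to 1.33, adjusted p = 0.0176). Ddit4 was lower, with a difference of -2.57 ± 0.73 (-4.08 to -1.06, adjusted p = 0.0167). The calls of Tsc22d3 and Nr3c1 held with every library left out, while that of Klf9 was lost without MHCII+CD11c+ control 1 (adjusted p = 0.107), LYVE1+CX3CR1+ control 1 (0.0570) or LYVE1+CX3CR1+ control 3 (0.0804). That of Ddit4 was lost without LYVE1+CX3CR1+ control 1 (0.0572) or 2 (0.0814), and without MHCII+CD11c+ control 3 the difference was -1.01 (0.399). It was also lost by limma voom (0.114), with only the groups compared (0.0657) and with surrogate variables, where the difference was -0.68 (0.612). Fkbp5 was not called, at -0.85 ± 0.35 (-1.57 to -0.13, adjusted p = 0.112), but was without LYVE1+CX3CR1+ control 2, its highest control library there (0.0116), and with a replicate block within treatment (0.0109). In the same comparison 12 of 26 tested genes of a further list of glucocorticoid-induced genes, described below, were called. Of these 5 were higher and 7 lower in LYVE1+CX3CR1+ controls, and the list median was -0.34. Of 16 clock genes 11 were called, 9 higher and 2 lower, with a median of 1.29.

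MHCII+CD11c+ controls also had less Tsc22d3 and Nr3c1 than MHCII+CD11c− controls, and these were the 2 genes called there, beside 8.66% of all genes tested. The receptor differed by -1.04 ± 0.19 on the log2 scale (-1.44 to -0.65, adjusted p = 0.000808), a call that held with every library left out. Tsc22d3 differed by -0.78 ± 0.20 (-1.21 to -0.36, adjusted p = 0.0153). Its call was lost without MHCII+CD11c− control 1 (0.0660) or 3 (0.143) or without MHCII+CD11c+ control 3 (0.0800). Between LYVE1+CX3CR1+ and MHCII+CD11c− controls edgeR called 0 of the 6 genes, beside 1.56% of all genes, and 1 had an unadjusted p under 0.05: Klf9, at 0.76 ± 0.24 (0.27 to 1.25, adjusted p = 0.137). DESeq2 called 0 and limma voom 1 there. In the order of levels of the receptor, LYVE1+CX3CR1+ controls at 266 ± 37.4 CPM and MHCII+CD11c− controls at 257 ± 49.4 CPM overlapped and lay above MHCII+CD11c+ controls at 125 ± 14.5 CPM (SD), none of whose libraries reached them.

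After IC, Tsc22d3 was the gene that edgeR called between subsets, while DESeq2 called 3 of the 6 genes in the first comparison below and limma voom 4 in the second. LYVE1+CX3CR1+ macrophages exceeded the MHCII+CD11c+ subset by 0.79 ± 0.23 on the log2 scale (0.32 to 1.27, adjusted p = 0.0254), 1 of the 6 genes, where 11.9% of all genes tested were called. MHCII+CD11c+ macrophages were below MHCII+CD11c− macrophages by -0.96 ± 0.23 (-1.44 to -0.48, adjusted p = 0.0161), again 1 of the 6 genes, beside 4.03% of all genes. Both calls rested on MHCII+CD11c+ IC library 2, without which the adjusted p was 0.403 and 0.547. The first was also lost without LYVE1+CX3CR1+ IC library 1 (0.0541), and the second without MHCII+CD11c− IC library 1 (0.0547) or 3 (0.0611). Between LYVE1+CX3CR1+ and MHCII+CD11c− macrophages after IC 0 of the 6 genes were called by edgeR, DESeq2 or limma voom, beside 5.54% of all genes in edgeR, and 1 had an unadjusted p under 0.05, Ddit4 at -1.82 ± 0.70 (-3.25 to -0.38, adjusted p = 0.129).

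The receptor was not called between subsets after IC by edgeR, though other fits called it. Nr3c1 was at 171 ± 30.8, 174 ± 23.9 and 113 ± 2.51 CPM (SD) after IC, and MHCII+CD11c+ macrophages differed from the others by 0.60 ± 0.22 as LYVE1+CX3CR1+ minus MHCII+CD11c+ (0.15 to 1.05, adjusted p = 0.0719) and by -0.63 ± 0.22 as MHCII+CD11c+ minus MHCII+CD11c− (-1.07 to -0.18, adjusted p = 0.118). The first passed the threshold by DESeq2 (0.0163), with RLE size factors (0.0331), with a minimum count of 30 (0.0353) and without LYVE1+CX3CR1+ IC library 2 (0.0313), and the second by limma voom (0.0176). Klf9 showed 0.71 ± 0.27 (0.16 to 1.27, adjusted p = 0.0890) and -0.77 ± 0.27 (-1.32 to -0.21, adjusted p = 0.129) in the same comparisons, of which the first passed by DESeq2 (0.0366) and without the same library (0.0206), and the second by limma voom (0.0154). Fkbp5 after IC differed, as MHCII+CD11c+ minus MHCII+CD11c− macrophages, by -0.80 ± 0.36 (-1.56 to -0.04), with an adjusted p of 0.320, and 0.0317 by limma voom.

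Whether the IC responses differed between subsets was tested as an interaction. In 18 such tests of the 6 genes edgeR called 0, as did DESeq2 and limma voom, and 3 had an unadjusted p under 0.05. Over all genes tested the called share was 0.0262% for LYVE1+CX3CR1+ against MHCII+CD11c−, 0.0327% for LYVE1+CX3CR1+ against MHCII+CD11c+ and 0.00% for MHCII+CD11c+ against MHCII+CD11c−. For Fkbp5 the response of LYVE1+CX3CR1+ less that of MHCII+CD11c+ macrophages was 1.08 ± 0.50 on the log2 scale (0.03 to 2.12, adjusted p = 0.604). That of MHCII+CD11c+ less that of MHCII+CD11c− macrophages was -1.29 ± 0.50 (-2.34 to -0.25, adjusted p = 1.0). The response of Klf9 in LYVE1+CX3CR1+ less that in MHCII+CD11c− macrophages was -0.81 ± 0.34 (-1.51 to -0.12, adjusted p = 0.590). The intervals span differences from near 0 to over 2 on the log2 scale, so these data do not show that the subsets responded alike.

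Other genes known to be induced by glucocorticoids were taken from a list of 28, of which 26 were tested. This list and those below were drawn up with earlier results of these data known, so their calls are no independent evidence. Over all genes tested 0.963%, 0.701% and 0.216% were called after IC in the 3 subsets. In LYVE1+CX3CR1+ macrophages 2 of them rose and 1 fell after IC, in MHCII+CD11c− macrophages 3 rose, and in MHCII+CD11c+ macrophages 1 rose. The list medians were 0.16, 0.39 and 0.33 on the log2 scale. Per1, a clock gene with a known response to the hormone, rose from 203 to 364 CPM in LYVE1+CX3CR1+ (0.85 ± 0.18, adjusted p = 0.0237) and from 239 to 413 CPM in MHCII+CD11c− macrophages (0.79 ± 0.18, adjusted p = 0.0380). Cebpb, a transcription factor of myeloid cells, rose by 0.79 ± 0.18 (adjusted p = 0.0282) and 1.17 ± 0.18 (adjusted p = 0.00111) in these subsets, and its difference in MHCII+CD11c+ macrophages was 0.84 ± 0.19 (adjusted p = 0.0870). The metallothionein gene Mt1 rose from 184 to 507 CPM in MHCII+CD11c− macrophages (1.46 ± 0.32, adjusted p = 0.0482). Thbd, which encodes thrombomodulin, rose from 6.15 to 26.6 CPM in MHCII+CD11c+ macrophages (2.05 ± 0.41, adjusted p = 0.0290). Irs2, an adaptor of insulin signalling, fell by 0.79 ± 0.18 in LYVE1+CX3CR1+ macrophages (adjusted p = 0.0282). The rise of Cebpb in MHCII+CD11c− macrophages held with every library left out. The other calls were each lost without any of at least 4 single libraries. The adjusted p of Per1 reached 0.138 without LYVE1+CX3CR1+ control 1 and 0.222 without MHCII+CD11c− control 1, that of Cebpb in LYVE1+CX3CR1+ macrophages 0.138 without control 2 and that of Irs2 0.137 without IC library 3. Mt1 reached 0.241 without MHCII+CD11c− IC library 3, and Thbd 0.616 without MHCII+CD11c+ IC library 1. Dusp1, which encodes a MAP kinase phosphatase, was not called, at 0.45, 0.46 and 0.36.

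Inflammatory genes that glucocorticoids are known to repress had IC differences on both sides of 0, above it for 7, 7 and 10 of the 15 tested. Over all 15272 genes tested, 6155, 7298 and 7797 lay above 0 in the 3 subsets. Of the 15, 1 fell in LYVE1+CX3CR1+ macrophages, Ccl2 by 1.3 ± 0.22 (adjusted p = 0.00332), 1 rose in MHCII+CD11c− macrophages, Ccl3 by 1.52 ± 0.30 (adjusted p = 0.0145), and none was called in MHCII+CD11c+ macrophages by edgeR, where 2 had an unadjusted p under 0.05. Both encode chemokines. The call of Ccl3 was lost without MHCII+CD11c− control 1 or 3 or IC library 2, with adjusted p-values of 0.0938, 0.121 and 0.116.

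The chaperones that hold the receptor were 11 genes, all tested, of which 2 rose in MHCII+CD11c− macrophages: Hspa8 by 0.85 ± 0.15 (adjusted p = 0.00413) and Hsp90ab1 by 0.75 ± 0.14 (adjusted p = 0.00872). Both calls were lost without MHCII+CD11c− IC library 3 (0.0600 and 0.0984), and that of Hsp90ab1 also without control library 3 (0.0990). In LYVE1+CX3CR1+ and MHCII+CD11c+ macrophages edgeR called 0, with 1 and 2 at an unadjusted p under 0.05, and DESeq2 called 1 and 0. Values were above 0 for 9, 11 and 10 of the 11 in the 3 subsets, with medians of 0.22, 0.56 and 0.20. Of all 15272 genes tested, 6155, 7298 and 7797 were above 0. Fkbp4, another FKBP co-chaperone of the complex, had log2 differences of 0.41, 0.51 and 0.20 and was not called. Heat-shock and immediate-early genes known to respond to tissue dissociation were a further list: 2 of 12 rose in LYVE1+CX3CR1+ and in MHCII+CD11c− macrophages, Hspa1a and Hspa1b (near-identical copies whose reads may be split), by 0.81 and 1.0 and by 1.27 and 1.55. In LYVE1+CX3CR1+ macrophages both calls were lost without control 2 (0.122 and 0.0745) or 3 (0.109 and 0.0887), and that of Hspa1a also without any other library of these 2 groups. The 12 genes summed to 15549 to 16646 CPM in LYVE1+CX3CR1+ controls and 17414 to 20292 CPM after IC, to 16259 to 18925 and 18299 to 19987 CPM in MHCII+CD11c−, and to 11338 to 13982 and 14128 to 15506 CPM in MHCII+CD11c+ macrophages. Their part in the values above was not tested.

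Clock genes, several of which also respond to glucocorticoids, changed beside the genes described here. Of 16 tested, 3 rose and 1 fell in LYVE1+CX3CR1+ and 2 rose in MHCII+CD11c− macrophages. Besides Per1, which is on both lists, Per2 rose by 1.13 ± 0.27 (adjusted p = 0.0406) and 1.24 ± 0.27 (adjusted p = 0.0251) in these subsets, and its difference in MHCII+CD11c+ macrophages was 1.35 ± 0.30 (adjusted p = 0.0615). Tef, a transcription factor of the clock output, rose by 1.19 ± 0.27 in LYVE1+CX3CR1+ macrophages (adjusted p = 0.0282). Arntl, which encodes the core activator BMAL1, fell from 130 to 27.5 CPM there (-2.23 ± 0.32, adjusted p = 0.000652), a call that held with every library left out. Those of Per2 and Tef were lost without single libraries, with an adjusted p of up to 0.168 for Per2 and 0.128 for Tef without LYVE1+CX3CR1+ control 2, and of up to 0.117 for Per2 without MHCII+CD11c− IC library 3. In MHCII+CD11c+ macrophages edgeR called 0 clock genes and DESeq2 1, with 5 at an unadjusted p under 0.05. The 17 listed clock genes summed to 1284 to 1371 CPM in LYVE1+CX3CR1+ controls and 1697 to 1789 CPM after IC, to 852 to 1351 and 1241 to 1479 CPM in MHCII+CD11c−, and to 1360 to 1585 and 1727 to 1778 CPM in MHCII+CD11c+ macrophages. The time of day of collection is not given, and its part in the levels of these genes and of the 6 genes was not tested.

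**Figure D4:**
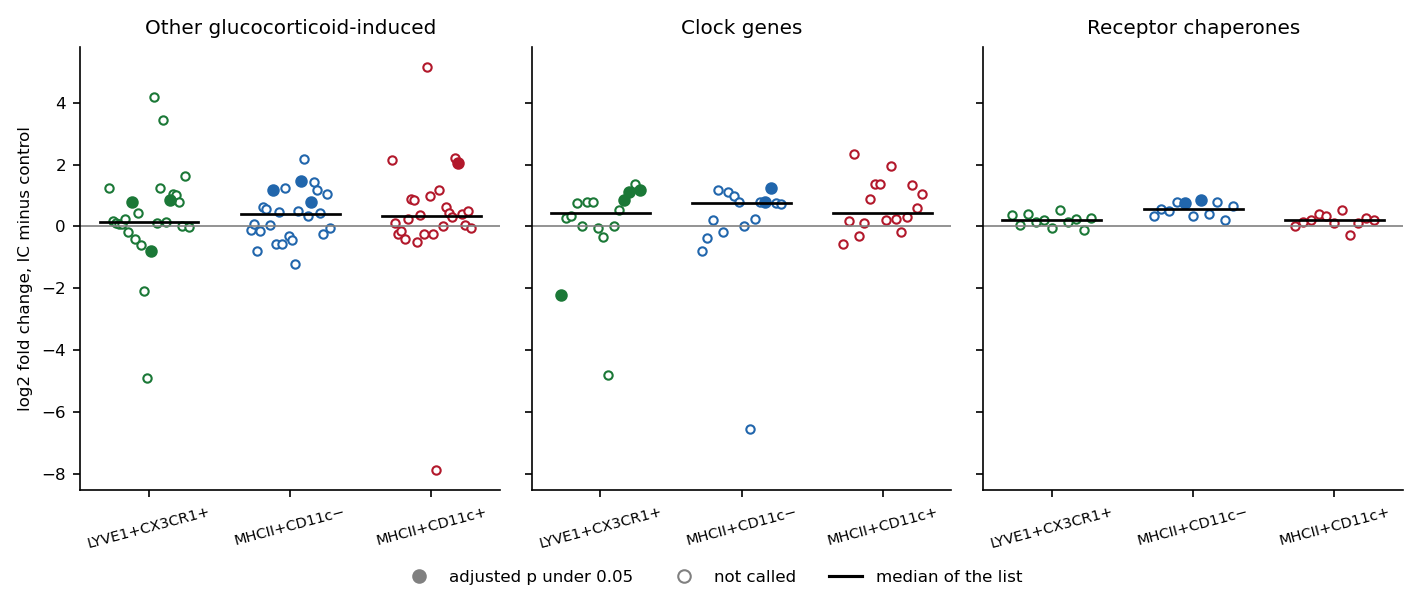
Log2 fold change after IC of each tested gene of 3 lists, by subset. Filled circles passed an adjusted p of 0.05, open circles did not, and black lines are list medians. The medians of the clock genes lie at 0.44, 0.75 and 0.45 (0.27 in place of 0.45 with the gene that has a group at 0 held at its bound), and those of the receptor chaperones at 0.22, 0.56 and 0.20.

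Relatives and partners of the genes were taken from further lists. Of the TSC22 family 2 were tested, of the SGK family and partners 8, of the KLF family 12, of the FKBP family 12, of mTORC1 regulators 16, of receptor coregulators 14 and of genes for the handling of steroid ligands 4 of 9 listed. The edgeR test called 0 in each list in each subset, beside 0 to 4 per list and subset with an unadjusted p under 0.05, and the list medians lay between -0.48 and 0.19. In control mice some of them differed between subsets, in the comparison where 15.2% of all genes were called. LYVE1+CX3CR1+ exceeded MHCII+CD11c+ controls in Tsc22d2 by 1.11 ± 0.19 (adjusted p = 0.000194), in Klf2 by 1.34 ± 0.16 (adjusted p = 1.31e-06) and Klf4 by 0.98 ± 0.18 (adjusted p = 0.000274), as Klf9 did, and in Fkbp15 by 0.82 ± 0.19 (adjusted p = 0.0031). Of the inhibitors of mTORC1, Sesn1 was higher by 2.19 ± 0.22 (adjusted p = 2.2e-07) and Sesn2 lower, at -1.91 ± 0.40 (adjusted p = 0.00142), as Ddit4 was. Foxo3, a substrate of SGK1, was higher by 0.99 ± 0.18 (adjusted p = 0.0003), and the receptor coregulators Ncoa3 and Nrip1 by 1.06 ± 0.17 (adjusted p = 6.33e-05) and 0.95 ± 0.22 (adjusted p = 0.0042). These calls held with every library left out. Deptor at 1.44, Castor2 at 1.62, Klf11 at 1.0, Fkbp9 at 2.68 and Ndrg1 at -1.80 were also called, and each of these calls was lost without any of at least 3 single libraries, except Castor2, lost without MHCII+CD11c+ control 1 (0.0562) or LYVE1+CX3CR1+ control 3 (0.0812).

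The genes most like each member over the 17 libraries were found as those with the smallest root mean square difference in log2 CPM after each gene was centred, among 15271 others. For Tsc22d3, whose own root mean square deviation was 0.81, they were Ms4a6c at 0.29, Tmem104 at 0.30, Man2a1 at 0.31, the clock gene Per2 at 0.33 and Hspa1a at 0.40. For Fkbp5, with an own deviation of 1.66, no gene was nearer than 0.92: Ccl9 at 0.92, Srm and Cacna1d at 0.97 and Wee1 and Cxcl1 at 1.01. Sgk1 (1.06) had Gde1 at 0.42 and Rhoc at 0.51. Klf9 (0.47) had Stx12 at 0.26, Tmem165 at 0.28 and Rab1a at 0.29, Ddit4 (1.29) had Mettl1 at 0.71, Ccl6 at 0.75 and Mt1 at 0.78, and Nr3c1 (0.49) had Pik3cg at 0.20 and Mtss1 and Dgkd at 0.21. Among the 6 genes themselves the nearest pair was Tsc22d3 and Klf9, at 0.55, and the farthest Fkbp5 and Nr3c1, at 1.95. On the 6 group means in place of the libraries, 3 of the 5 genes named for Fkbp5 (Ccl9, Cacna1d and Cxcl1), 1 of the 5 for Tsc22d3 (Ms4a6c) and 1 of the 3 for Ddit4 (Ccl6) were named again, and none of those named for Sgk1, Klf9 and Nr3c1. These are descriptions over libraries that share their groups and say nothing of shared control.

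**Figure D5:**
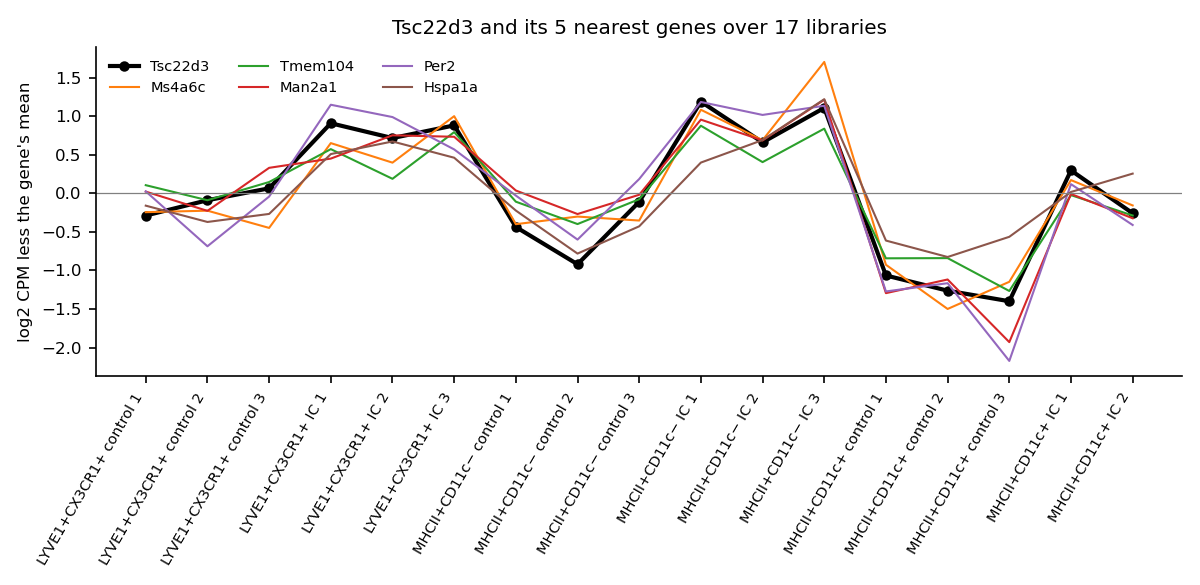
Log2 CPM of Tsc22d3 (black with circles) and its 5 nearest genes (coloured lines) in each of the 17 libraries, less the mean of each gene. The lines follow Tsc22d3 within a root mean square difference of 0.29 for Ms4a6c to 0.40 for Hspa1a.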

How the data were processed

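Bulk RNA-seq was measured in 17 libraries of 6 groups, assigned from the sample labels. Per the labels and the study's methods, libraries were made from total RNA with a low-input stranded kit, and the authors used Trim Galore, FastQC, HISAT2 on mm10 and featureCounts. Versions, annotation, use of strand and treatment of multimapping reads are not given in the sources used here. The deposited values are counts, whole reads per gene symbol, not normalized, and the authors used DESeq2 and sva, with a batch that is not named. Each library's own table was identical to its column of the joint table (17 of 17). A further 1 column matched no sample, summed to 0 and was not used. Replicates differed by more than sampling noise (lowest chi-square per degree of freedom 6.77). Nothing says that they came from separate animals, so p-values measure the spread between these samples, which may be technical.

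Counts were analysed in R 4.3.3 with edgeR 4.0.16: filterByExpr with a minimum count of 10 kept 15272 genes, TMM scaled the libraries (factors 0.939 to 1.05), and glmQLFit (robust, 1 mean per group, 11 residual degrees of freedom) was followed by the quasi-likelihood F test with Benjamini-Hochberg adjustment over all genes tested, at 0.05. The biological coefficient of variation was 45.1%, and the fit was checked on simulated data. CPM used TMM library sizes, and log2 CPM a prior count of 2. Coordinates and lengths were taken from GENCODE M21, which matched 22266 symbols (97.4%), and promoters from RefSeq. Alternatives used DESeq2 1.42.0, limma 3.58.1 and sva 3.50.0. The members and gene lists were chosen with earlier results of these data known. Named are the 6 members, of each list the genes called in the comparison at hand (at most 5 by p) or paired with a member, and the 3 or 5 nearest genes of each member, of which 1 is not reported here. Intervals cover 95% and rest on the fitted spread.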

Additional observations from a re-analysis of the deposited data

How the results depend on the processing

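Tests of single members were refitted only where the main fit gave an unadjusted p under 0.05. These were 8 of 18 tests in controls, 8 of 18 after IC and 3 of 18 interactions. They kept direction and side of the threshold in 172 of 190 alternative fits and in 306 of 323 fits without 1 library. Some of the latter left 1 library in the MHCII+CD11c+ IC group. None changed direction, which is no result, since tests with differences near 0 were left out. Members called numbered 0 for LYVE1+CX3CR1+ against MHCII+CD11c− controls, but 1 by limma voom, by a fit to only the groups compared and by a replicate block within treatment. The other counts moved as follows. LYVE1+CX3CR1+ against MHCII+CD11c+ controls gave 4, 3 by voom, with only the groups, svaseq or counts drawn down to the smallest total, 5 with the block within treatment, and 2 to 4 without single libraries. MHCII+CD11c+ against MHCII+CD11c− controls gave 2, 1 by voom and with only the groups, and 1 to 2 without single libraries. After IC, LYVE1+CX3CR1+ against MHCII+CD11c+ gave 1, 2 with RLE size factors, a minimum count of 30 or only the groups, 3 by DESeq2, 0 with svaseq (2 of 6 surrogate variables used) and 0 to 3 without single libraries. After IC, MHCII+CD11c+ against MHCII+CD11c− gave 1, 4 by voom and 0 to 1 without single libraries. Other glucocorticoid-induced genes called were 3, 3 and 1, with subsets in the order of the report. DESeq2 gave 5 in the first and 2 in the third, voom 1, 5 and 2, only the groups 1 in the first and 0 in the third, and RLE 1 in the second. Without single libraries they were 0 to 4, 1 to 3 and 0 to 2. The causes were not tested.

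Replicate numbers were not taken to pair samples. In deviations from the group means, same-numbered libraries of different subsets correlated at 0.00738 to 0.286 in controls and 0.00129 to 0.0659 after IC. Differently numbered ones correlated at -0.150 to 0.0672 and at -0.0659 to 0.0540. The highest values thus belonged to same-numbered libraries, and whether these share a source was not tested. A replicate block left the members called at 0, 4 and 2 in controls, 0, 1 and 1 after IC and 0 in each interaction, and the listed glucocorticoid-induced genes at 4, 3 and 1. With RLE scaling the median of all genes moved by 0.13 and 0.17 in the interactions of LYVE1+CX3CR1+ macrophages, and the share of higher genes among those called after IC there was 26.4%, against 15.6% with TMM.

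The counts over all genes behind the called shares moved more. Without single libraries they were 43 to 195, 29 to 173 and 0 to 104 after IC, lowest without LYVE1+CX3CR1+ control 3, MHCII+CD11c− IC library 3 and MHCII+CD11c+ IC library 1, 96 to 411, 1591 to 2716 and 785 to 1671 between control subsets, 437 to 1118, 666 to 1965 and 145 to 787 between subsets after IC, and 1 to 7, 3 to 56 and 0 to 21 for interactions. After IC they were 147, 107 and 33 in the 3 subsets, 436, 287 and 71 by DESeq2, 46, 168 and 97 by voom, 63, 71 and 0 with only the groups compared, and 224 and 235 in the first and the second with svaseq. In controls LYVE1+CX3CR1+ against MHCII+CD11c− gave 238, against 512 by DESeq2, 977 by voom, 494 with only the groups and 376 with the replicate block within treatment, and LYVE1+CX3CR1+ against MHCII+CD11c+ gave 2326, against 3810 by voom. After IC the first of these pairs gave 846, against 1447, 270 and 376 by DESeq2, voom and only the groups, the second 1824, against 1153 with only the groups, and MHCII+CD11c+ against MHCII+CD11c− 616, against 1026, 1783, 1060 and 999 by DESeq2, voom, only the groups and svaseq. Interactions of LYVE1+CX3CR1+ macrophages with the others gave 4 and 5 genes, 38 and 44 by DESeq2, 0 and 8 by voom, 7 and 13 with only the groups 13 and 16 with svaseq and 10 and 35 with the block within treatment. The first gave 2 with a minimum count of 30, the second 12 with a filter on a total of 10 counts and 23 with the replicate block, and the third, at 0, gave 2 by DESeq2.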
